A study of Mus musculus with 22 samples.

Results

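Germline genes that mouse embryonic stem cells normally hold in check were followed through depletion of ribosomal proteins and of the transcription factor Dux. The group holds 10 genes (Dazl, Ddx4, Mael, Asz1, Stk31, Sycp1, Sycp3, Hormad1, Slc25a31 and Tex101), taken by gene symbol. All 10 have a row in both deposited tables, out of 24819 genes per table.

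Genes of this kind work in germ cells and are kept low in most somatic tissues by DNA methylation of CpG-rich promoters. Pluripotent cells grown in serum methylate many of these promoters, and a repressor complex built on E2f6, Max and Mga, known as PRC1.6, is also recruited to such promoters through E2F and E-box motifs. When either layer is weakened in embryonic stem cells, germline genes are known to become transcribed. DNA methylation itself was not measured here, so "methylation-silenced" describes what is known of the genes and not a state seen in these libraries.

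The RNA came from E14, a mouse embryonic stem cell line cultured on gelatin with leukemia inhibitory factor, 3 days after small interfering RNAs (siRNAs) were introduced with DharmaFECT. There were 22 libraries of 6 kinds: siRpl14+siRpl11, siRpl14+siDux, siRpl14, siRpl11, siDux and siNT, where each single siRNA was topped up with siNT. Rpl14 and Rpl11 are genes of large ribosomal subunit proteins, and Dux encodes the factor that switches on genes of the 2-cell embryo. The labels do not spell out NT, and siNT served as the reference. Set 1 had 2 libraries each of siRpl14+siRpl11, siRpl14, siRpl11 and siNT. Set 2 had 1 library each of siRpl14+siDux, siRpl14, siDux and siNT and stood in the same table as set 1. Set 3, the other table, had 2 libraries each of siRpl14+siDux, siRpl14, siDux and siNT, and single libraries of siRpl14+siRpl11 and siRpl11. The sets were read from the table and the style of the titles, and no label ties replicates to separate cultures, so the p-values rest on a spread between libraries that may be technical.

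Values are FPKM, which scale fragment counts by transcript length and by library size. The number of fragments per library is not known. In set 3, 50.5 to 56.2% of genes are listed at 0 per library, against 30.1 to 32.1% in sets 1 and 2, and low values are coarser there. All 7 embryonic stem cell markers averaged at least 1 FPKM in each set. Rpl14 averaged 648 FPKM in siRpl14 libraries and 1484 FPKM in siNT libraries of set 1, and 316 FPKM against 1228 FPKM in set 3. Rpl11 averaged 187 FPKM in siRpl11 libraries of set 1, against 745 FPKM in siNT. The level of Dux in siDux libraries is not reported here. In bulk RNA, fewer cells that transcribe a gene and less RNA per cell cannot be told apart.

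The promoters are shown because 7 of the 10 members hold an E-box there, and 4 of these also an E2F core, the motifs tied to PRC1.6. The windows are the 250 bases before the RefSeq gene start on GRCm38.p6, printed along the gene's strand. Capitals mark the E-box CACGTG and the E2F core TCCCGC, the second also where it reads as GCGGGA from the other strand.
Hormad1 (chr3:95559427-95559676, plus strand): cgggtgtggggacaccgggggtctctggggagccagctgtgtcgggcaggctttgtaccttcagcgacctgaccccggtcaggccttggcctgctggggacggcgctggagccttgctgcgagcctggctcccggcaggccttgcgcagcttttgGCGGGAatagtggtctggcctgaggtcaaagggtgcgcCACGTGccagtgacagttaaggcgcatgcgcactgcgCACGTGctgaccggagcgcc
Mael (chr1:166238745-166238994, minus strand): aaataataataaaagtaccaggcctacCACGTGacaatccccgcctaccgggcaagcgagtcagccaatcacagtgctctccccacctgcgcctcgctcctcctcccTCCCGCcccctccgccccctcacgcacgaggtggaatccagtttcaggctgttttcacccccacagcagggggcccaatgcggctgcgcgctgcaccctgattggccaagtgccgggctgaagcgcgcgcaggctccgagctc
Sycp3 (chr10:88459337-88459586, plus strand): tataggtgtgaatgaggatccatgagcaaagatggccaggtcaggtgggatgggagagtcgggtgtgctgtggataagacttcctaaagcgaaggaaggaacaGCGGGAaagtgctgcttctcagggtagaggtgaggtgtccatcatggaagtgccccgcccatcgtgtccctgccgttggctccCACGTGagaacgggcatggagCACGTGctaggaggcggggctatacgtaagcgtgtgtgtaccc
Ddx4 (chr13:112652311-112652560, minus strand): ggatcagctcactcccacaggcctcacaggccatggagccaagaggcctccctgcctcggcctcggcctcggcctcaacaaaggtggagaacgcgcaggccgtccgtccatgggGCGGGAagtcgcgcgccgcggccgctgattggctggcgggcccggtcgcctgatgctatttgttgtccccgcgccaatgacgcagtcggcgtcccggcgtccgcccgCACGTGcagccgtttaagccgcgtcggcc
Slc25a31 (chr3:40708621-40708870, plus strand): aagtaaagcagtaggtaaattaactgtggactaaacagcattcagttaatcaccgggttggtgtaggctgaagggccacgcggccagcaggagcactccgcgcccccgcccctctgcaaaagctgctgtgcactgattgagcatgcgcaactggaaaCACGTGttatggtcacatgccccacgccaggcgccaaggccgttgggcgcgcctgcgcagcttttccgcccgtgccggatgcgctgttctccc
Hormad1, Mael, Sycp3 and Ddx4 hold both motifs, and Slc25a31 holds the E-box alone. In Hormad1 the E-boxes begin 57 and 20 bases before the start and the E2F core begins 95 bases before it. Sycp3 has the same layout, with E-boxes beginning at 64 and 43 bases and the E2F core at 147 bases. Across the 10 members, 7 windows (70%) held CACGTG, against 6.83% of the 18119 genes with a window and a row in the tables. In a wider list of germline genes, 10 of 40 windows (25%) held it. TCCCGC on either strand was in 4 member windows (40%), against 21.6% of all and 32.5% of the wider list. Both motifs stood together in 4 member windows (40%), against 1.94% of all and 1 of 40 windows (2.5%) in the wider list. Sycp1 and Stk31 also held the E-box without the E2F core, while Dazl, Asz1 and Tex101 held neither string. The member windows had a median of 18 CpG dinucleotides (12 in Sycp3 to 31 in Ddx4), against a median of 10 for all genes. A match is a string of letters and not a measured binding site.

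**Figure D1:**
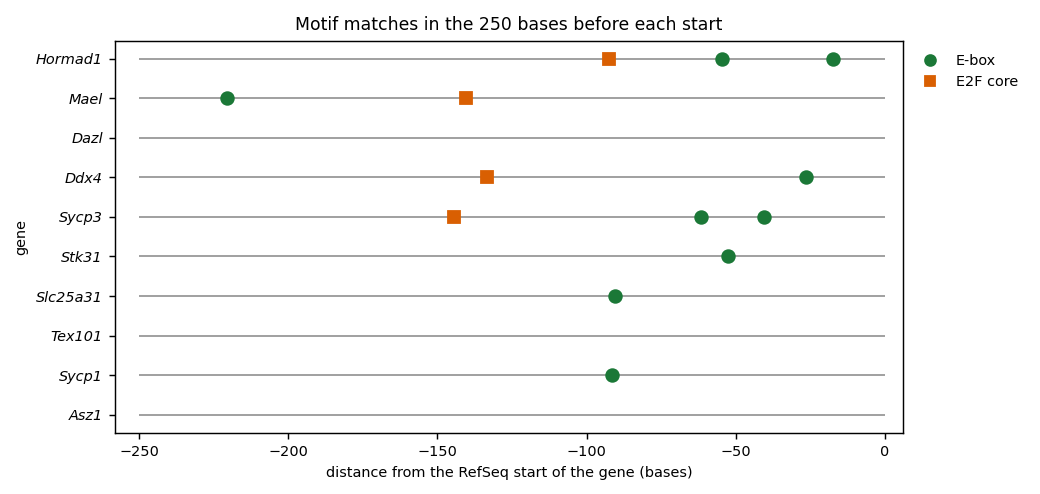
Position of each CACGTG and TCCCGC string in the promoter windows of the 10 members, in bases before the RefSeq gene start (x axis), 1 row per member. Hormad1 and Sycp3 carry 2 E-boxes and 1 E2F core each, and Dazl, Asz1 and Tex101 carry none.

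The members were not uniformly silent. Over the 12 libraries of sets 1 and 2, 7 of the 10 averaged more than 1 FPKM. Mael, which guards male germ cells against transposons in the piRNA pathway, was the highest at a mean of 11.1 FPKM, above 76.1% of all genes. Ddx4, the Vasa RNA helicase of germ granules, averaged 5.88 FPKM, and Dazl, an RNA-binding protein needed for germ cell development, averaged 5.54 FPKM. Hormad1 and Sycp3, both proteins of the meiotic chromosome axis, averaged 4.10 and 3.88 FPKM. Slc25a31, the ADP/ATP carrier of germ cell mitochondria, averaged 1.92 FPKM, next to 1.85 FPKM for Stk31, a testis protein with a tudor and a kinase domain. Below 1 FPKM lay Tex101, a glycoprotein of germ cell surfaces, at 0.713 FPKM, Sycp1, the transverse filament of the synaptonemal complex, at 0.482 FPKM, and Asz1, a piRNA pathway protein at germ cell mitochondria, at 0.0900 FPKM. Ddx4, Dazl, Hormad1 and Sycp3 overlapped in their ranges over the libraries, as did Slc25a31 with Stk31, so only the broad order is clear. These means pool knockdown and siNT libraries: in siNT of set 1 Hormad1 averaged 1.19 FPKM, below Stk31 (2.48 FPKM) and Slc25a31 (1.83 FPKM), while Sycp3 averaged 6.68 FPKM.

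For sets 1 and 3, limma was run within each set on log2(FPKM + 1), a scale that understates changes of low genes, and a gene was called at an adjusted p (Benjamini-Hochberg over all genes tested) below 0.05. Genes needed at least 1 FPKM in at least 2 libraries. In set 1, 7 members met that filter (Hormad1, Mael, Dazl, Ddx4, Sycp3, Stk31 and Slc25a31), and Sycp1, Asz1 and Tex101 did not. Hormad1 reached 1 FPKM in 1 of 2 siNT libraries and in all 6 knockdown libraries of set 1.

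The members did not move as a block. Hormad1 rose in every set 1 knockdown, Mael rose when siRpl11 was present, and Sycp3, Ddx4 and Stk31 fell in some of the same comparisons. With siRpl14 in set 1, 1 of the 7 tested members passed (Hormad1, higher), where 31.5% of the 12129 tested genes passed and 18.1% passed as higher. With siRpl11, 4 passed, where 44.3% of genes did: Hormad1 and Mael were higher (16% of genes) and Sycp3 and Ddx4 lower (28.4% of genes). With siRpl14+siRpl11, 5 passed, where 41.6% of genes did: Hormad1 and Mael were higher (16.6% of genes) and Sycp3, Ddx4 and Stk31 lower (25% of genes). The median log2 fold change of the 7 tested members was 0.27 with siRpl14, -0.15 with siRpl11 and -0.37 with both, beside 0.03, -0.11 and -0.07 over all tested genes. With 7 genes tested, these shares lie on both sides of those of the whole table, and no result is read from them about the members as a group. All 3 comparisons share the siNT libraries.

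**Figure D2:**
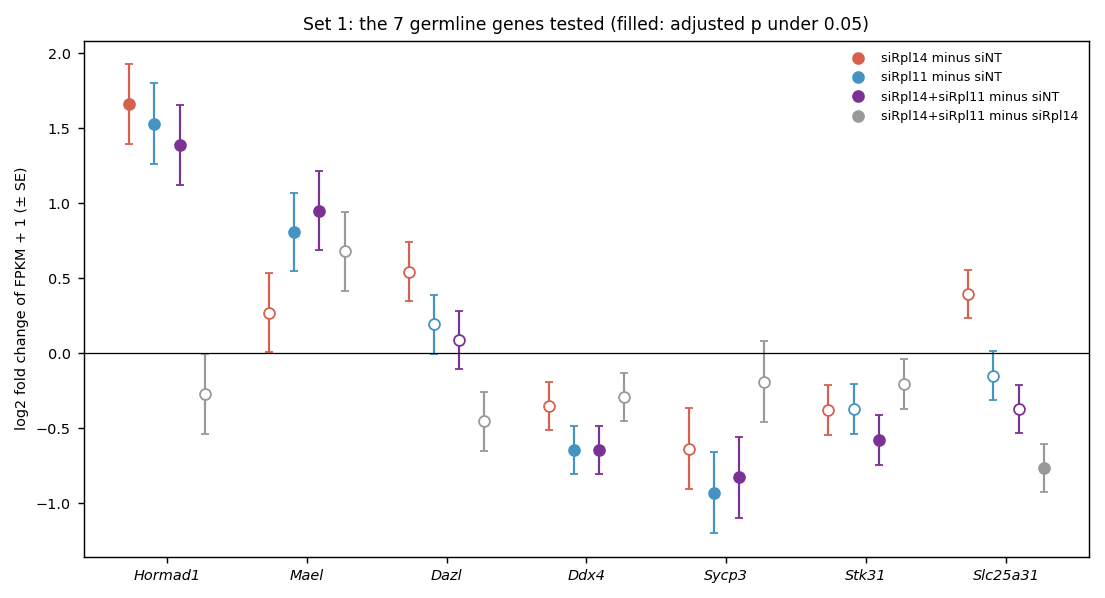
Log2 fold change of each tested member on the log2(FPKM + 1) scale (points, with bars of 1 SE from limma) for 4 comparisons of set 1, with filled points for calls at an adjusted p below 0.05. Hormad1 lies between 1.39 and 1.66 in the comparisons with siNT, and Sycp3 lies between -0.93 and -0.64.

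Hormad1 binds unsynapsed chromosome axes in meiosis and showed the widest change of the tested members in set 1. In set 1 it stood at 3.54 and 6.11 FPKM in siRpl14+siRpl11 libraries, at 5.05 and 6.78 FPKM in siRpl14 libraries and at 6.44 and 4.30 FPKM in siRpl11 libraries, against 1.47 and 0.915 FPKM in siNT libraries. Each knockdown library was above both siNT libraries, and the 3 knockdowns overlapped one another. The log2 fold change from siNT was 1.39 ± 0.27 (SE; limma, adjusted p = 0.00752) with both siRNAs, 1.66 ± 0.27 (limma, adjusted p = 0.00558) with siRpl14 and 1.53 ± 0.27 (limma, adjusted p = 0.00510) with siRpl11. The call for both siRNAs was lost without siNT replicate 2 (limma, adjusted p = 0.0527), and the calls for either single siRNA held with every library left out in turn.

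Hormad1 with both siRNAs fell short of the added changes of the single ones. The interaction, which sets the change with both siRNAs against the added changes of each alone, was -1.80 ± 0.38 (limma, adjusted p = 0.0418). Among all genes 4.49% passed it and 2.65% passed as lower. That call was lost without any 1 of 7 of the 8 libraries (the exception was siRpl14 replicate 1), with limma adjusted p of 0.0637 to 0.142, and with no filter (0.0688) or a filter of 5 FPKM (0.0531). Between siRpl14+siRpl11 and siRpl14 the Hormad1 difference was -0.27 ± 0.27 (limma, adjusted p = 0.597), and between siRpl14 and siRpl11 it was 0.13 ± 0.27 (limma, adjusted p = 0.793), neither of which shows that the levels were alike.

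Hormad1 was also higher with siRpl14 than with siNT in sets 2 and 3. In set 2 it was at 3.88 FPKM with siRpl14+siDux, 6.88 FPKM with siRpl14 and 2.24 FPKM with siDux, against 1.64 FPKM with siNT, with no replicates. In set 3 it was at 15.5 and 30.4 FPKM with siRpl14+siDux, 26.8 and 27.9 FPKM with siRpl14 and 11.9 and 13.5 FPKM with siDux, against 9.76 and 7.51 FPKM with siNT. The single libraries of set 3 held 28.7 FPKM with siRpl14+siRpl11 and 21.9 FPKM with siRpl11. Every library of set 3 with a ribosomal protein siRNA was thus above every siDux and siNT library. The log2 fold changes from siNT of 1.25 ± 0.37 for siRpl14+siDux (limma, adjusted p = 0.179) and 1.57 ± 0.37 for siRpl14 (limma, adjusted p = 0.145) did not pass in set 3. Of 13189 genes, 1.02% passed with siRpl14+siDux (0.713% higher and 0.311% lower) and 0.66% with siRpl14 (0.531% higher and 0.129% lower).

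**Figure D3:**
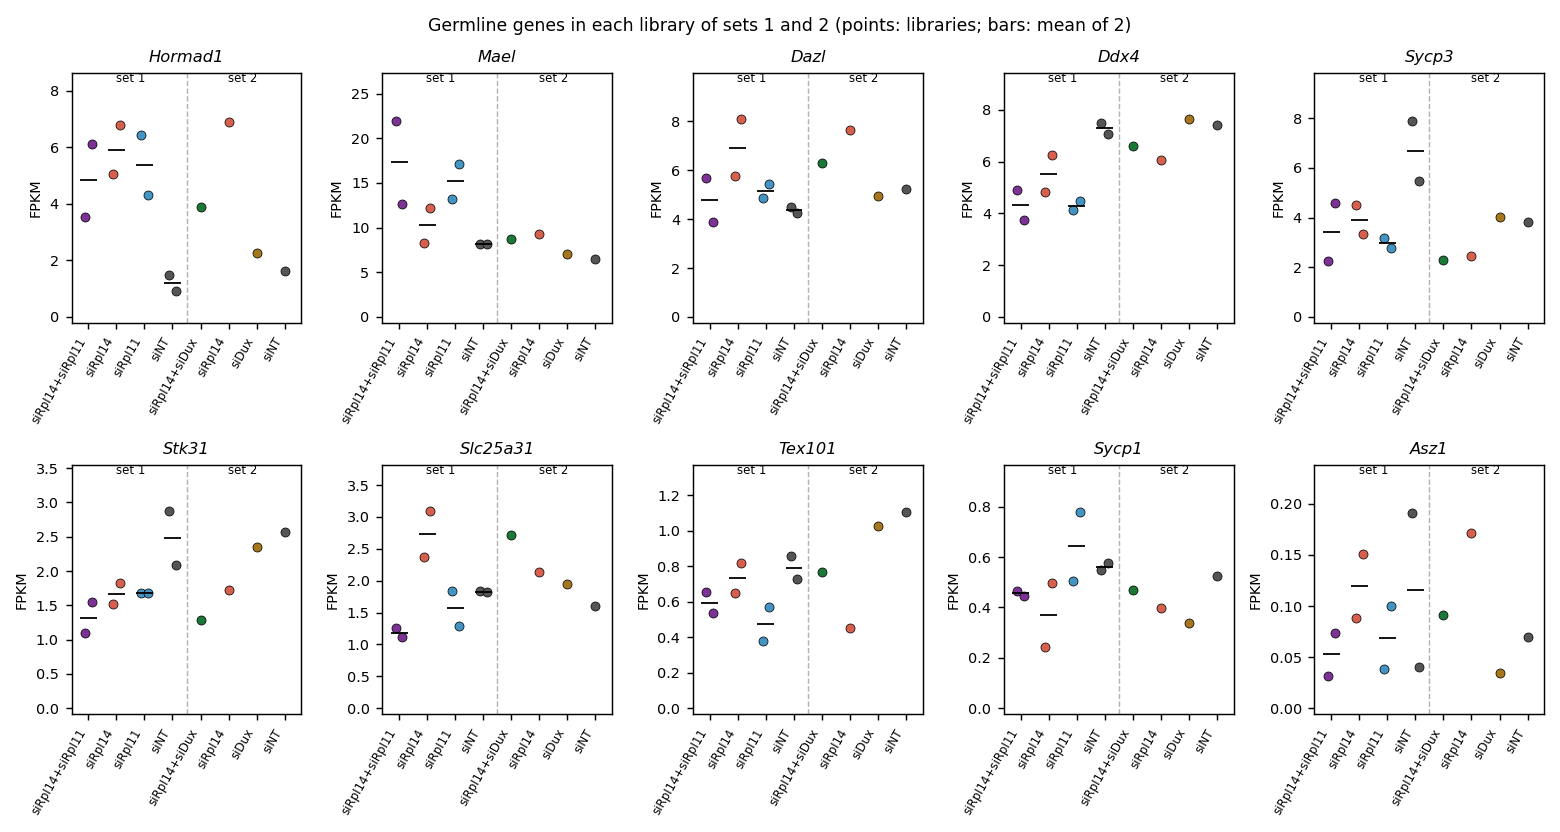
FPKM of the 10 members in each library of sets 1 and 2 (points; horizontal bars are means of 2 libraries in set 1, and set 2 has 1 library per group), with knockdowns left of siNT. Hormad1 lies at 3.54 to 6.78 FPKM in the knockdown libraries of set 1 and at 0.915 and 1.47 FPKM in siNT, while Sycp3, Ddx4 and Stk31 are lower in every knockdown library of set 1.

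Among the members that act on RNA and transposons in germ granules, Mael was higher and Ddx4 lower when Rpl11 was depleted in set 1. Mael stood at 22.0 and 12.7 FPKM with siRpl14+siRpl11, 8.27 and 12.2 FPKM with siRpl14 and 13.2 and 17.1 FPKM with siRpl11, against 8.17 and 8.17 FPKM with siNT. All 6 knockdown libraries were above siNT, 1 siRpl14 library only narrowly. Mael rose with both siRNAs (0.95 ± 0.26, limma, adjusted p = 0.0232) and with siRpl11 (0.81 ± 0.26, limma, adjusted p = 0.0380), and its difference with siRpl14 was 0.27 ± 0.26 (limma, adjusted p = 0.443). The siRpl11 call was lost without either siNT library or siRpl11 replicate 2 (limma, adjusted p of 0.131 to 0.183) and with no filter (0.0651). The call for both siRNAs was lost without either siNT library or siRpl14+siRpl11 replicate 1 (limma, adjusted p of 0.0967 to 0.137).

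Ddx4 stood at 4.90 and 3.76 FPKM with siRpl14+siRpl11, 4.82 and 6.23 FPKM with siRpl14 and 4.13 and 4.46 FPKM with siRpl11, against 7.50 and 7.06 FPKM with siNT. All 6 knockdown libraries were below both siNT libraries. Ddx4 fell by 0.64 ± 0.16 on the log2 scale with both siRNAs (limma, adjusted p = 0.0166) and by 0.65 ± 0.16 with siRpl11 (limma, adjusted p = 0.0151), and its difference with siRpl14 was -0.35 ± 0.16 (limma, adjusted p = 0.126). The siRpl11 call was lost without any 1 of the 2 siNT and 2 siRpl11 libraries (limma, adjusted p of 0.0562 to 0.0839) and with quantile scaling (0.0790). The call for both siRNAs was lost without either siNT library or siRpl14+siRpl11 replicate 2 (limma, adjusted p of 0.0622 to 0.0899).

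Dazl passed in none of these comparisons. It stood at 5.67 and 3.90 FPKM with siRpl14+siRpl11, 5.75 and 8.10 FPKM with siRpl14 and 4.86 and 5.44 FPKM with siRpl11, against 4.51 and 4.25 FPKM with siNT. Both siRpl14 libraries and both siRpl11 libraries lay above siNT, and siRpl14+siRpl11 overlapped it. The Dazl difference with siRpl14 was 0.54 ± 0.20 (limma, adjusted p = 0.0656). Asz1 stayed between 0.0320 and 0.191 FPKM in all 8 libraries of set 1, with every group overlapping siNT.

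Sycp3 builds the axial elements of meiotic chromosomes and went the opposite way from Hormad1, its partner on the same axis. It stood at 2.27 and 4.59 FPKM with siRpl14+siRpl11, 4.50 and 3.32 FPKM with siRpl14 and 3.18 and 2.79 FPKM with siRpl11, against 7.89 and 5.46 FPKM with siNT. All 6 knockdown libraries were below both siNT libraries. Sycp3 fell by 0.83 ± 0.27 on the log2 scale with both siRNAs (limma, adjusted p = 0.0409) and by 0.93 ± 0.27 with siRpl11 (limma, adjusted p = 0.0262), and its difference with siRpl14 was -0.64 ± 0.27 (limma, adjusted p = 0.104). The siRpl11 call was lost without siNT replicate 1 or either siRpl11 library (limma, adjusted p of 0.0526 to 0.163) and with quantile scaling (0.0813). The call for both siRNAs was lost without either siNT library or siRpl14+siRpl11 replicate 1 (limma, adjusted p of 0.0658 to 0.243), with no filter (0.0681) and with quantile (0.0884) or median-ratio (0.0533) scaling.

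Sycp3 lies within Chpt1, a gene of phospholipid synthesis on the other strand, and whether the authors counted by strand is not given in the sources used here. Chpt1, looked at after the Sycp3 values were seen, averaged 3.68 FPKM with siRpl14+siRpl11, 2.87 FPKM with siRpl14 and 3.83 FPKM with siRpl11, against 6.18 FPKM with siNT. It fell by 0.62, 0.89 and 0.57 on the log2 scale in those comparisons (limma, adjusted p of 0.0133, 0.00585 and 0.0161). The calls with both siRNAs and with siRpl11 were lost without either siNT library (limma, adjusted p of 0.0631 to 0.0709), without siRpl14+siRpl11 replicate 1 for both siRNAs (0.105), and for siRpl11 without its replicate 2 (0.112) and with quantile scaling (0.0830). The share of Chpt1 reads in the Sycp3 values was not tested. Pseudogenes on the other strand also overlap Sycp1 (Gm33866, Gm33952 and Gm42816) and Stk31 (Gm17060). They have no row of those names, and their part in the Sycp1 and Stk31 values was not tested.

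Stk31 and Slc25a31 were near 2 FPKM. Stk31 stood at 1.10 and 1.54 FPKM with siRpl14+siRpl11, 1.52 and 1.82 FPKM with siRpl14 and 1.67 and 1.68 FPKM with siRpl11, against 2.87 and 2.09 FPKM with siNT. All knockdown libraries were below siNT, and Stk31 fell by 0.58 ± 0.17 on the log2 scale with both siRNAs (limma, adjusted p = 0.0260), a call lost without siNT replicate 1 (limma, adjusted p = 0.154) or siRpl14+siRpl11 replicate 1 (limma, adjusted p = 0.169), and with quantile scaling (0.110). Its differences of -0.38 ± 0.17 with siRpl14 and -0.37 ± 0.17 with siRpl11 did not pass (limma, adjusted p = 0.115 and 0.101).

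Slc25a31 was the member called between the double knockdown and siRpl14 alone. It stood at 1.25 and 1.12 FPKM with siRpl14+siRpl11, against 2.37 and 3.09 FPKM with siRpl14. The siRpl11 libraries held 1.84 and 1.29 FPKM and the siNT libraries 1.83 and 1.82 FPKM. Slc25a31 fell by 0.77 ± 0.16 on the log2 scale in siRpl14+siRpl11 relative to siRpl14 (limma, adjusted p = 0.0306), the 1 member called in a comparison where 7.24% of genes passed, 0.627% as higher and 6.61% as lower. That call was lost without either siNT library, siRpl14 replicate 2 or either siRpl14+siRpl11 library (limma, adjusted p of 0.0685 to 0.167) and with quantile scaling (0.0957). Between siRpl14 and siRpl11, 0 of the 7 members passed in limma, where 13.4% of genes did (12% higher and 1.45% lower), and 1 had an unadjusted p below 0.05: Slc25a31, at 0.54 ± 0.16 (limma, adjusted p = 0.0631).

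Sycp1 and Tex101 stayed below 1 FPKM in every library of set 1. Sycp1 was at 0.465 and 0.446 FPKM with siRpl14+siRpl11, 0.244 and 0.496 FPKM with siRpl14 and 0.505 and 0.780 FPKM with siRpl11, against 0.547 and 0.575 FPKM with siNT. Tex101 was at 0.653 and 0.537 FPKM, 0.652 and 0.820 FPKM and 0.381 and 0.573 FPKM in the same order of knockdowns, against 0.857 and 0.726 FPKM with siNT. For Tex101 only siRpl14 overlapped siNT, and for Sycp1 only siRpl11 did not lie wholly below it.

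In set 2, with 1 library per group, the 7 tested members differed between siRpl14 and siNT in the same direction as in set 1. Sycp3 held 2.29 FPKM with siRpl14+siDux, 2.47 FPKM with siRpl14 and 4.03 FPKM with siDux, against 3.83 FPKM with siNT. Ddx4 held 6.59, 6.07 and 7.65 FPKM in those knockdowns, against 7.40 FPKM with siNT, and Stk31 held 1.28, 1.72 and 2.35 FPKM, against 2.56 FPKM. The libraries with siRpl14 were the low ones for all 3 genes. Mael held 8.71 FPKM with siRpl14+siDux, 9.25 FPKM with siRpl14 and 7.01 FPKM with siDux, against 6.51 FPKM with siNT. Dazl held 6.29, 7.63 and 4.93 FPKM, against 5.22 FPKM with siNT, and Slc25a31 held 2.71, 2.14 and 1.96 FPKM, against 1.597 FPKM with siNT. For Mael, Dazl and Slc25a31 the libraries with siRpl14 were the high ones. With siDux alone the members differed from siNT in set 2 by -0.19 (Sycp1) to 0.30 (Hormad1) on the log2(FPKM + 1) scale.

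With sets 1 and 2 fitted together and the set as a term, 5 of 8 tested members passed for siRpl14 against siNT, where 47.7% of 12375 genes passed. Hormad1 rose by 1.63 ± 0.20 (limma, adjusted p = 0.000438), Dazl by 0.52 ± 0.15 (limma, adjusted p = 0.0186) and Slc25a31 by 0.35 ± 0.13 (limma, adjusted p = 0.0431), where 25.9% of genes were called higher. Sycp3 fell by 0.58 ± 0.21 (limma, adjusted p = 0.0427) and Stk31 by 0.38 ± 0.13 (limma, adjusted p = 0.0352), where 21.8% of genes were called lower.

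Set 3 gave a different picture of levels. Across 8335 genes with at least 5 FPKM, its siNT mean correlated with that of set 1 at r = 0.686 on the log2 scale, against r = 0.978 for set 2 with set 1, where genes are not independent replicates. Sycp1, below 1 FPKM in sets 1 and 2, lay between 10.1 and 19.6 FPKM in set 3. Asz1 and Tex101 were listed at 0 in all 10 libraries, and Slc25a31 in all but siRpl14 replicate 1 (5.96 FPKM). The 7 members tested in set 3 were Hormad1, Mael, Dazl, Ddx4, Sycp3, Stk31 and Sycp1.

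In set 3, limma called 0 of these 7 members in any of the 5 comparisons. Besides siRpl14 and siRpl14+siDux against siNT, these were siDux against siNT (0.00758% of genes called), siRpl14+siDux against siRpl14 (0.0152%) and the interaction (0.0152%). At an unadjusted p below 0.05, 1 member (Hormad1) differed with siRpl14 and 1 (Hormad1) with siRpl14+siDux against siNT, and 0 differed in the other 3 comparisons. Few genes of the whole table passed in this set, so 0 calls do not show that the members were unchanged.

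Sycp1 stood at 19.6 and 14.8 FPKM with siRpl14+siDux, 16.8 and 17.3 FPKM with siRpl14 and 12.7 and 10.1 FPKM with siDux, against 10.9 and 11.1 FPKM with siNT in set 3. The single libraries held 17.6 FPKM with siRpl14+siRpl11 and 17.6 FPKM with siRpl11. The libraries with a ribosomal protein siRNA were all above those without one. The Sycp1 log2 difference was 0.59 ± 0.32 for siRpl14+siDux (limma, adjusted p = 0.443) and 0.59 ± 0.32 for siRpl14 (limma, adjusted p = 0.523). Sycp3 stood at 13.8 and 9.02 FPKM with siRpl14+siDux, 6.69 and 15.0 FPKM with siRpl14 and 22.2 and 15.1 FPKM with siDux, against 17.0 and 21.9 FPKM with siNT. The single libraries held 10.1 FPKM with siRpl14+siRpl11 and 9.43 FPKM with siRpl11. Its libraries with a ribosomal protein siRNA were all below those without one, with a log2 difference of -0.87 ± 0.45 for siRpl14 (limma, adjusted p = 0.500).

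Ddx4 stood at 6.63 and 5.37 FPKM with siRpl14+siDux, 8.48 and 6.60 FPKM with siRpl14 and 3.84 and 5.00 FPKM with siDux, against 5.00 and 5.94 FPKM with siNT in set 3, with 8.39 FPKM in the single siRpl14+siRpl11 library and 3.56 FPKM in that of siRpl11. Both siRpl14 libraries were above siNT, the reverse of set 1. Mael stood at 6.71 and 3.8215 FPKM with siRpl14+siDux and 9.23 and 6.93 FPKM with siDux, against 3.8155 and 0 FPKM with siNT. Its other libraries held 0 and 2.72 FPKM with siRpl14, 0 FPKM with siRpl11 and 2.80 FPKM with siRpl14+siRpl11. The Mael libraries with siDux were thus all above those without it, the lowest only narrowly. Dazl stood at 2.15 and 2.54 FPKM with siRpl14+siDux, 0 and 3.79 FPKM with siRpl14 and 0 and 4.63 FPKM with siDux, against 6.29 and 4.81 FPKM with siNT, which were its highest libraries. Stk31 was listed at 0 in siDux replicate 2 and reached 5.25 FPKM in siRpl14 replicate 1. Replicates of Stk31 differed too widely in set 3 for an order of the groups. The Mael log2 differences from siNT did not pass in set 3. They were 1.47 ± 0.93 for siRpl14+siDux (limma, adjusted p = 0.531) and 2.04 ± 0.93 for siDux (limma, adjusted p = 0.988). In set 2, siRpl14+siDux held less Mael than siRpl14 (8.71 against 9.25 FPKM).

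**Figure D4:**
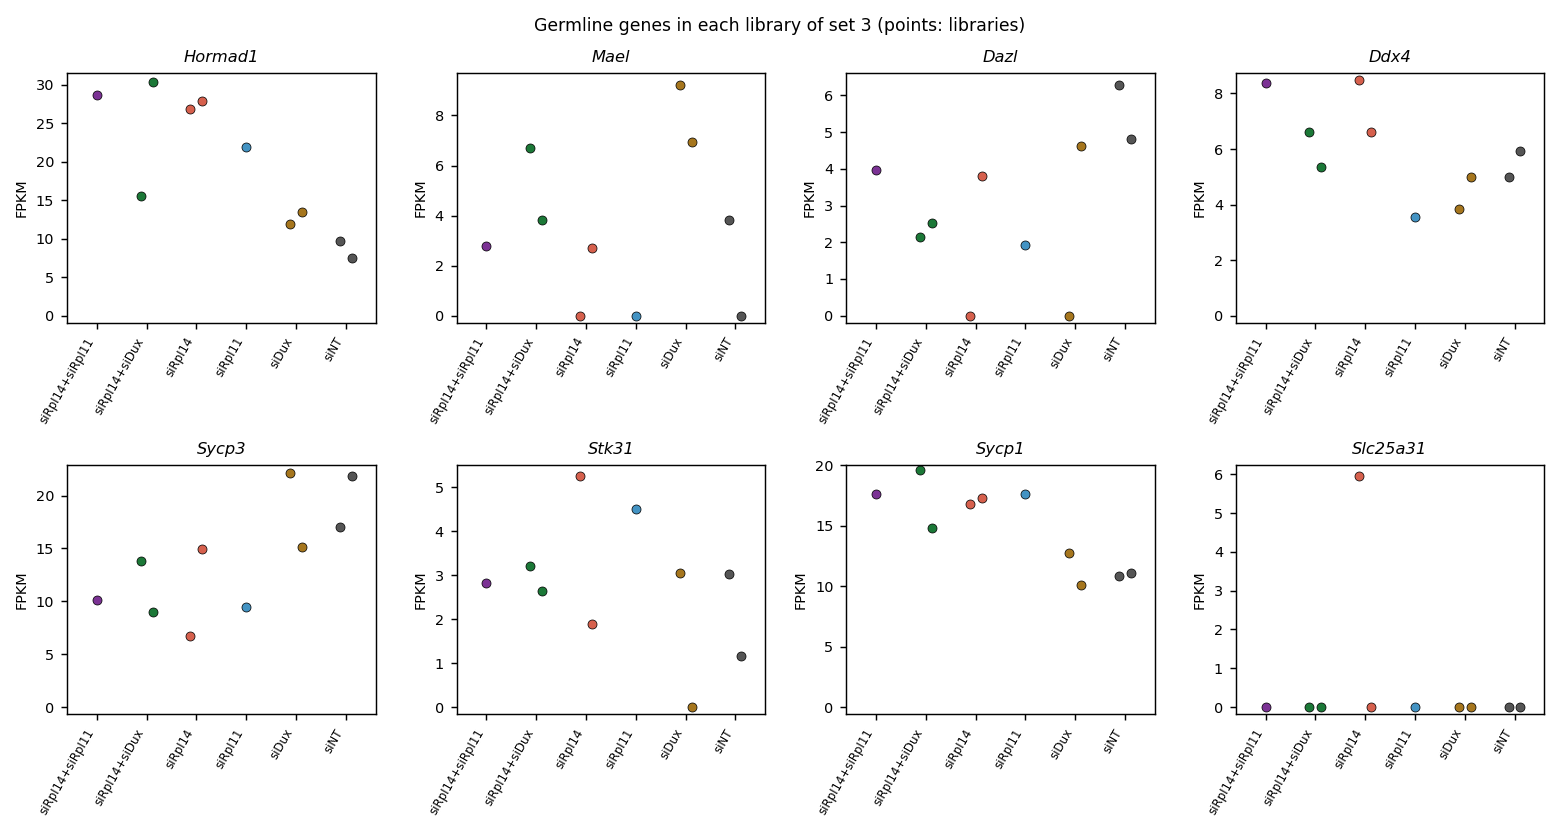
FPKM of the members with any value above 0 in each library of set 3 (points), with knockdowns left of siNT. Hormad1 is at 15.5 to 30.4 FPKM with a ribosomal protein siRNA and at 7.51 to 13.5 FPKM in siDux and siNT libraries, while Mael, Dazl and Stk31 include libraries listed at 0.

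Some genes that write, keep or remove DNA methylation changed in set 1 beside these members. Of 10 such genes, 4 rose (Dnmt3a, Dnmt3b, Dnmt3l and Hells) and 1 fell (Uhrf1) in each of the comparisons of siRpl14+siRpl11, siRpl14 and siRpl11 with siNT, where 16.6%, 18.1% and 16% of all tested genes were called higher and 25%, 13.4% and 28.4% lower. The median log2 fold change of the list was 0.12 with siRpl14+siRpl11, -0.03 with siRpl14 and 0.03 with siRpl11, beside -0.07, 0.03 and -0.11 over all tested genes. Dnmt3a, a de novo DNA methyltransferase, stood at 69.9 and 56.1 FPKM with siRpl14+siRpl11, 33.6 and 37.5 FPKM with siRpl14 and 57.4 and 73.0 FPKM with siRpl11, against 19.5 and 24.2 FPKM with siNT. It rose by 1.49 ± 0.17 (limma, adjusted p = 0.00266) with both siRNAs, 0.68 ± 0.17 (limma, adjusted p = 0.0201) with siRpl14 and 1.53 ± 0.17 (limma, adjusted p = 0.00226) with siRpl11. Dnmt3b, the other de novo enzyme, averaged 72.3, 40.1 and 65.2 FPKM in these knockdowns, against 25.7 FPKM with siNT. Dnmt3l, their cofactor, averaged 423, 406 and 490 FPKM, against 245 FPKM with siNT. Uhrf1, which guides maintenance methylation, averaged 99.0, 95.3 and 93.3 FPKM, against 144 FPKM with siNT. The rises of Dnmt3a, Dnmt3b, Dnmt3l and Hells with siRpl11 and with both siRNAs held with every library left out in turn. With siRpl14 alone, Dnmt3a, Dnmt3b and Hells lost their calls without siNT replicate 1 (limma, adjusted p of 0.134, 0.0870 and 0.195), Dnmt3a and Hells also without siRpl14 replicate 2 (0.117 and 0.184), and the Uhrf1 calls were lost without either siNT library. In set 2, Dnmt3b was at 33.6 FPKM with siRpl14, against 31.5 FPKM with siNT, and Hells at 53.6 FPKM, against 54.1 FPKM. Dnmt3a and Dnmt3b were higher in siRpl14+siRpl11 than in siRpl14 (0.80 ± 0.17 and 0.84 ± 0.13; limma, adjusted p = 0.0299 and 0.0118), but neither gene passed once siRpl14 replicate 2, or replicate 1 of the double knockdown, was left out (limma, adjusted p of 0.0802 to 0.186). In set 3, 0 of the 10 genes were called with siRpl14+siDux or siRpl14 against siNT, where 1.02% and 0.66% of all tested genes were. The list's median log2 fold change there was -0.44 and -0.16, beside -0.07 and -0.05 over all tested genes. Any part of the levels of these genes in the member values was not tested.

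**Figure D5:**
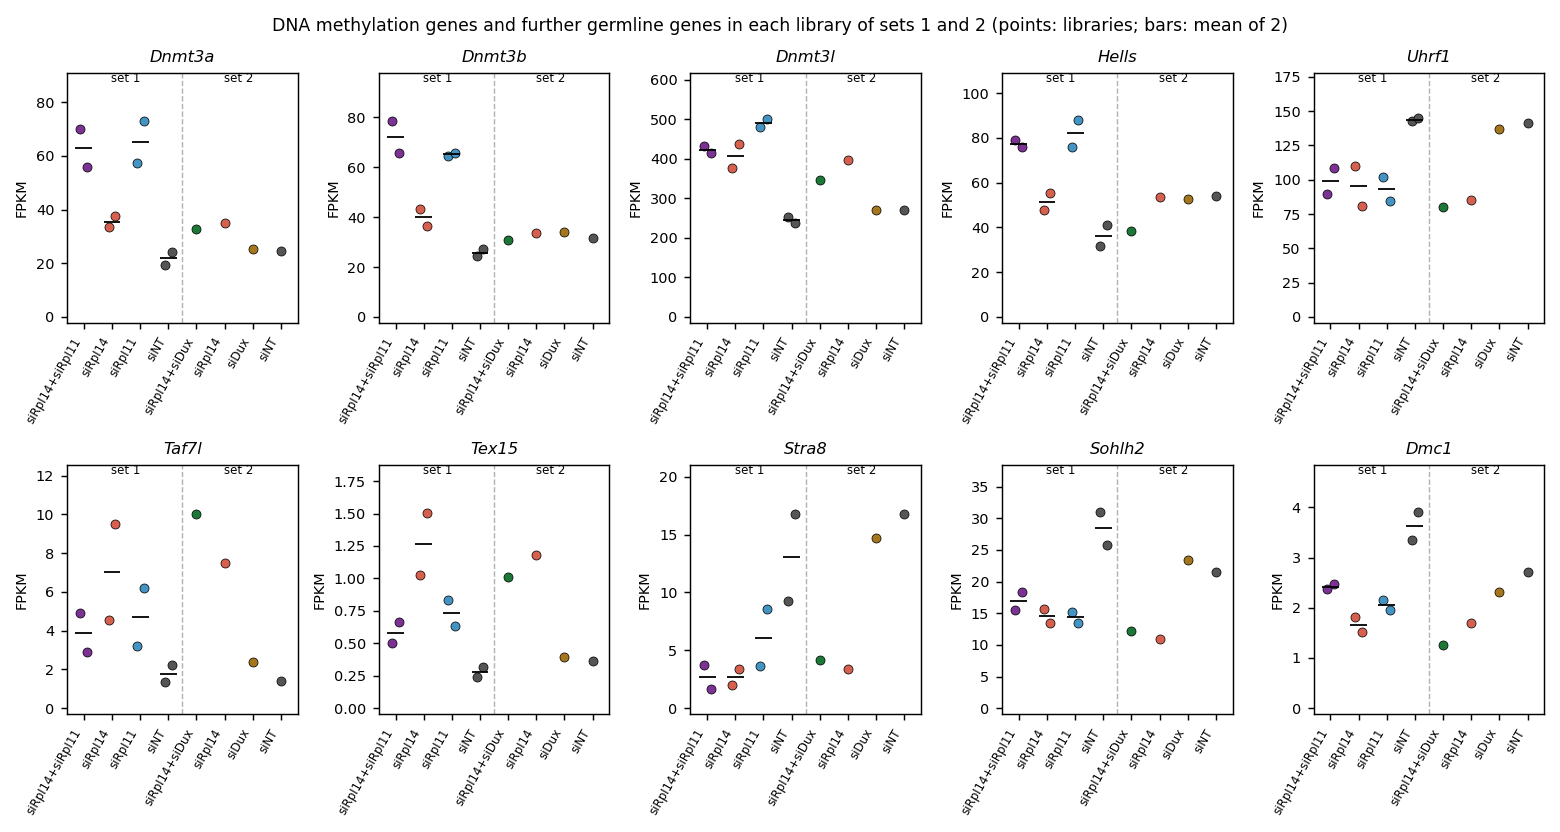
FPKM per library of sets 1 and 2 for 5 genes of DNA methylation (upper row) and 5 genes of the wider germline list (lower row), with knockdowns left of siNT (points; bars are means of 2 libraries in set 1). Dnmt3a and Dnmt3b average 63.0 to 72.3 FPKM in set 1 libraries with siRpl11, against 21.8 and 25.7 FPKM in siNT, and Taf7l and Stra8 move in opposite directions.

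Of 19 genes of PRC1.6, its partners and H3K9 methylation, 4 rose (Mga, Rybp, Cbx3 and Atf7ip) and 1 fell (Setdb1) with siRpl14+siRpl11. With siRpl14, 1 rose (Atf7ip) and 1 fell (Setdb1), and with siRpl11, 8 rose (Mga, Rybp, Rnf2, L3mbtl2, Cbx1, Cbx3, Trim28 and Atf7ip) and 1 fell (Setdb1). These 4, 1 and 8 of 19 genes stand beside 16.6%, 18.1% and 16% of all tested genes called higher, so the first count is near that share and the second below it. The third lies above its share but depended on single libraries, as given below. No result is read from these counts about the list. The list's median log2 fold change was 0.27, 0.11 and 0.32 in those comparisons, beside -0.07, 0.03 and -0.11 over all tested genes. With median-ratio scaling 8 rose with siRpl14+siRpl11 and 11 with siRpl11, and without siNT replicate 1, 0 rose in each of the 3 comparisons. Without siRpl11 replicate 2, 0 rose with siRpl11, and without siRpl14+siRpl11 replicate 1, 0 rose with both siRNAs. In set 3, 0 of the 19 genes were called with siRpl14+siDux or siRpl14 against siNT, where 1.02% and 0.66% of all tested genes were. The list's median log2 fold change there was -0.31 and -0.07, beside -0.07 and -0.05 over all tested genes. In set 1, Mga, the scaffold of PRC1.6, averaged 36.7 FPKM with siRpl14+siRpl11 and 40.9 FPKM with siRpl11, against 25.9 FPKM with siNT. It rose by 0.50 ± 0.15 (limma, adjusted p = 0.0322) and 0.65 ± 0.15 (limma, adjusted p = 0.0122). Both Mga calls were lost without siNT replicate 1 (limma, adjusted p of 0.185 and 0.0773), among other libraries. Setdb1, an H3K9 methyltransferase that acts at germline genes, averaged 26.6, 28.9 and 27.5 FPKM with siRpl14+siRpl11, siRpl14 and siRpl11, against 38.1 FPKM with siNT. All 3 Setdb1 calls were lost without siNT replicate 2 (limma, adjusted p of 0.0820 to 0.195). Atf7ip, the partner that stabilises Setdb1, averaged 35.0, 34.5 and 34.7 FPKM, against 22.1 FPKM with siNT. Its 3 calls were lost without siNT replicate 1 (limma, adjusted p of 0.0670 to 0.0989).

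Of a wider list of 46 germline genes, 30 were tested in set 1. With siRpl14+siRpl11, 5 rose and 8 fell, with siRpl14, 5 rose and 6 fell, and with siRpl11, 6 rose and 7 fell. In those comparisons 16.6%, 18.1% and 16% of all tested genes were called higher and 25%, 13.4% and 28.4% lower. The counts lie near those shares, and no result is read from them about the list. The list's median log2 fold change was -0.08, -0.25 and -0.15 in those comparisons, beside -0.07, 0.03 and -0.11 over all tested genes. Without siNT replicate 1, 1 rose and 3 fell with siRpl14+siRpl11, 1 rose and 2 fell with siRpl14, and 3 rose and 4 fell with siRpl11. Stra8, the switch of meiotic entry, averaged 2.71 FPKM with siRpl14, against 13.0 FPKM with siNT, and fell by 1.89 ± 0.43 on the log2 scale (limma, adjusted p = 0.0154, lost without any 1 siRpl14 or siNT library). Taf7l, a germ cell subunit of the general factor TFIID, averaged 7.02 FPKM with siRpl14, against 1.77 FPKM with siNT, and rose by 1.48 ± 0.38 (limma, adjusted p = 0.0228, lost without siRpl14 replicate 2 or any 1 siNT library). Rec8, the meiotic cohesin, averaged 2.87 FPKM with siRpl14+siRpl11 and 2.52 FPKM with siRpl11, against 7.02 FPKM with siNT. It fell by 1.06 ± 0.14 and 1.19 ± 0.14 on the log2 scale (limma, adjusted p = 0.00327 and 0.00248). Taf7l was the only gene of this list and the members that passed in set 3. It stood at 31.9 and 31.0 FPKM with siRpl14+siDux and 17.9 and 23.7 FPKM with siRpl14, against 3.20 and 2.20 FPKM with siNT. Taf7l rose there by 3.14 ± 0.38 (limma, adjusted p = 0.0114) and 2.56 ± 0.38 (limma, adjusted p = 0.0395), and both calls were lost without either siNT library (limma, adjusted p of 0.0518 to 0.192) or either library of the knockdown itself (0.0607 to 0.238).

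Markers of other states were summed over the same libraries. The summed level of 14 matched genes of the 2C-like state was 55.2 to 58.9 FPKM with siRpl14+siRpl11, 197 to 212 FPKM with siRpl14 and 42.0 to 44.7 FPKM with siRpl11, against 58.9 to 65.7 FPKM with siNT in set 1. Hormad1 was high in all of these knockdowns. In set 2 the 2C-like sum was 22.1 FPKM with siRpl14+siDux, 321 FPKM with siRpl14 and 5.79 FPKM with siDux, against 126 FPKM with siNT. In set 3 it was 5.24 to 8.98 FPKM with siRpl14+siDux, 64.2 to 72.7 FPKM with siRpl14 and 0 to 2.03 FPKM with siDux, against 18.6 to 22.3 FPKM with siNT. In set 1 the sum of 6 trophectoderm markers was 7.14 to 7.97 FPKM with siRpl14+siRpl11, 17.4 to 31.6 FPKM with siRpl14 and 6.03 to 7.46 FPKM with siRpl11, against 13.2 to 15.4 FPKM with siNT. Primitive endoderm markers had 0 calls by limma against siNT in set 1, with 3 of 7 tested and 1 (Gata4, with siRpl14) at an unadjusted p below 0.05, and their sum was 3.74 to 8.64, 4.88 to 9.46 and 3.67 to 7.67 FPKM, against 3.56 to 5.64 FPKM with siNT. The sum of 6 fibroblast markers was 4.64 to 8.95 FPKM over the knockdown libraries, against 15.4 to 15.5 FPKM with siNT, with Dcn and Lum at 0 in every library of set 1. Only 1 of the 6, Thy1, met the filter in set 1, so this sum does not describe the list as a whole. The sum of 7 embryonic stem cell markers was 2435 to 3064 FPKM over the knockdown libraries, against 3424 to 3446 FPKM with siNT. Of these 7, Sox2 was called higher with siRpl14+siRpl11, siRpl14 and siRpl11, while 5, 2 and 3 were called lower. In those comparisons 16.6%, 18.1% and 16% of all tested genes were called higher and 25%, 13.4% and 28.4% lower. The part of these shifts in the member values was not tested.

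Over the 8 libraries of set 1, the members paired off in ways that follow their directions above. On log2(FPKM + 1), Mael and Sycp3 correlated at r = -0.876, Sycp3 and Stk31 at r = 0.833, and Hormad1 and Ddx4 at r = -0.747, all within the same libraries and group means. Among 11534 genes with a mean of at least 1 FPKM, the genes most like Hormad1 were Zfp512 (r = 0.978), Clpp (r = 0.973) and Mier1 (r = 0.972). Among those most like Mael were Zeb2 (r = 0.986) and Rpusd4 (r = 0.978), and those most like Sycp3 were Gngt2 (r = 0.991), Tmem268 (r = 0.984) and Nccrp1 (r = 0.984). Ddx4 was most like Eid1 (r = 0.982), Nt5dc3 (r = 0.979) and Ptpn12 (r = 0.978), and Dazl was most like Errfi1 (r = 0.968), Med11 (r = 0.960) and Ttf1 (r = 0.957). Slc25a31 was most like Calhm5 (r = 0.980), Pik3cb (r = 0.965) and Klhl7 (r = 0.962), and Stk31 was most like Ypel5 (r = 0.967), Nbdy (r = 0.963) and Nrn1l (r = 0.960). None of these is another member. With so many genes and 8 libraries in 4 groups, high values of r are common, and they are given as a description.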

How the data were processed

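Stranded mRNA libraries from E14 cells gave the deposited tables. Per the submitters' processing notes, reads were handled with STAR and Cuffnorm on mm9. Their versions, the annotation, the strand setting and the normalization were not given in the sources used here, labels included. The authors' deposited values are FPKM per gene, 1 column per library, 24819 genes in each of 2 tables, and no read counts, so depth and its precision are unknown.

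Symbols were matched exactly. Set 1 (8 libraries) and set 3 (8 of its 10; the single siRpl14+siRpl11 and siRpl11 libraries were left out) were fitted separately with limma 3.58.1 (R 4.3.3, statmod 1.5.0), trended and robust, on log2(FPKM + 1), keeping genes that reached 1 FPKM in 2 or more libraries. Errors of fold changes are SE, and p-values are two-sided with Benjamini-Hochberg adjustment at 0.05. Set 2 was not tested alone and entered a test only in the fit of sets 1 and 2 together. The fit was tested on simulated data. Alternatives were a pseudocount of 0.1, filters of 0.1 and 5 FPKM and none, quantile and median-ratio scaling, limma without trend and robust moderation, a replicate block, each library left out, sets 1 and 2 together, and all 10 libraries of set 3.

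Promoter windows are RefSeq's on GRCm38.p6, the first where 2 were listed (Hormad1, Stk31); no mm9 coordinates were used. Gene overlaps came from GENCODE M21 (GRCm38). The members, lists, tests and alternatives were chosen with earlier results of these data known. Named beyond the members are at most 4 called genes per list and comparison by size of change, the siRNA targets, and the 3 genes most like each tested member, of which 1 is not reported here. All genes of counts of 5 or fewer that are named beyond that rule (Cbx3 and others), and Chpt1, were named after their values were seen. Of the 17 genes in the 2C-like list, 14 had a row.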

Additional observations from a re-analysis of the deposited data

Results flagged for a closer look

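The siRpl14 and siRpl11 effects on Hormad1 in set 1 differed from additive, with an interaction of -1.80 on the log2(FPKM + 1) scale that passed (limma, adjusted p = 0.0418) but was lost without any 1 of 7 of the 8 libraries (0.0637 to 0.142), with no filter (0.0688) and with a filter of 5 FPKM (0.0531).

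For Dazl, Ddx4 and Sycp1, both siRpl14 libraries lay on one side of both siNT libraries in set 1 and on the other side in set 3. Dazl had a log2 difference from siNT of 0.54 in set 1 and -1.57 in set 3, where siRpl14 replicate 1 is listed at 0. Ddx4 had -0.35 in set 1 and 0.40 in set 3. Sycp1 had -0.19 in set 1, from values below 1 FPKM, and 0.59 in set 3. The Dazl and Ddx4 differences did not pass in either set, Sycp1 was not tested in set 1 and did not pass in set 3, and Dazl passed with sets 1 and 2 fitted together (limma, adjusted p = 0.0186). The difference between the sets lies between tables and was not tested.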

How the results depend on the processing

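Up to 21 member fold changes were followed under each alternative, those called in the main fit and some of those not called. The other member fold changes were not followed under every alternative. Of those followed, none changed sign. The median over all genes did with quantile scaling, at 0.01 for siRpl14+siRpl11, -0.01 for siRpl14 and 0.01 for siRpl11 against siNT, beside -0.07, 0.03 and -0.11 as deposited, and for siRpl11 2552 genes were then called higher and 2399 lower, beside 1938 and 3439. Quantile scaling left 2 members called for siRpl11 (Mael and Hormad1, against 4) and 3 for siRpl14+siRpl11 against siNT (against 5), and 0 for siRpl14+siRpl11 against siRpl14 (against 1). A filter of 5 FPKM left 0 members called for siRpl14+siRpl11 against siRpl14. Slc25a31, at most 3.09 FPKM in set 1, was no longer tested under it, so that filter could not show its call lost. The same filter left 0 members called for the interaction, and no filter left 0 for the interaction. Without trend and robust moderation 1 member (Slc25a31) was called between siRpl14 and siRpl11, against 0. Sets 1 and 2 together called 5 members for siRpl14, against 1, while the share of all genes called was 47.7%, against 31.5%.

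With 1 library left out, members called in set 1 ranged from 1 to 3 for siRpl14 (3 without either siRpl14+siRpl11 library), 1 to 4 for siRpl11 (1 without siNT replicate 1 or siRpl11 replicate 2) and 1 to 5 for siRpl14+siRpl11 against siNT (1 without either siNT library). They ranged from 0 to 1 for siRpl14+siRpl11 against siRpl14, 0 to 0 between siRpl14 and siRpl11 and 0 to 1 for the interaction, and from 0 to 0 in every comparison of set 3. Over all genes the calls ranged as well, from 752 to 3851 for siRpl14, 1778 to 5592 for siRpl11 and 1307 to 5255 for siRpl14+siRpl11. Where a group was left with 1 library, it was assumed to vary like the others. The causes were not tested.

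Replicate numbers did not pair the libraries in a uniform way. In set 1, same-numbered libraries of siNT, siRpl11 and siRpl14 deviated together, at r of 0.178 to 0.502. Those of siRpl14+siRpl11 deviated the opposite way from same-numbered libraries of each of these groups, at r of -0.501 to -0.237. A replicate effect shared under a different numbering was not tested. In set 3, same-numbered libraries had r of 0.00609 to 0.0390. With the replicate block, members called were 1 for siRpl14, 3 for siRpl11, 4 for siRpl14+siRpl11 against siNT, 0 for siRpl14+siRpl11 against siRpl14, 0 between siRpl14 and siRpl11 and 0 for the interaction, and 0 in every comparison of set 3. With the block, Mael with siRpl11 (limma, adjusted p = 0.0557), Sycp3 with siRpl14+siRpl11 (0.0597), Slc25a31 between siRpl14+siRpl11 and siRpl14 (0.0612) and the Hormad1 interaction (0.0707) did not pass.

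The median-ratio scaling moved the median of all genes for siRpl11 against siNT to -0.01, against -0.11 as deposited, and the share of calls that were higher to 50.0%, against 36.0%. The share was 48.8% against 39.8% for siRpl14+siRpl11 against siNT, 20.4% against 8.66% for siRpl14+siRpl11 against siRpl14, and 63.7% against 89.2% between siRpl14 and siRpl11. Changes of the members are therefore relative to shifts of up to 0.12 over all genes. Low values in set 3, where 50.5 to 56.2% of genes are listed at 0 per library, limit what can be read there.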

Other observations

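Of 6 genes tied to early germ cells, 1 rose (Dppa3) and 1 fell (Prdm14) with siRpl14+siRpl11 against siNT in set 1. With siRpl14, 2 rose (Dppa3 and Tfap2c) and 1 fell (Prdm14), and with siRpl11, 1 rose (Dppa3) and 2 fell (Prdm14 and Dnd1). In those comparisons 16.6%, 18.1% and 16% of all tested genes were called higher and 25%, 13.4% and 28.4% lower. With 6 genes, no result is read from these counts about the list. The list's median log2 fold change was -0.48, 0.06 and -0.09, beside -0.07, 0.03 and -0.11 over all tested genes. Prdm14, a transcriptional regulator of primordial germ cells and naive pluripotency, stood at 3.71 and 5.41 FPKM with siRpl14+siRpl11, 8.19 and 7.39 FPKM with siRpl14 and 6.97 and 6.19 FPKM with siRpl11, against 13.1 and 14.4 FPKM with siNT. All 6 knockdown libraries of Prdm14 were below both siNT libraries. It fell by 1.43 ± 0.17, 0.75 ± 0.17 and 0.96 ± 0.17 on the log2 scale (limma, adjusted p = 0.00266, 0.0143 and 0.00480). With siRpl14, Prdm14 no longer passed when siNT replicate 1, siNT replicate 2 or siRpl14 replicate 2 was left out (limma, adjusted p of 0.0703 to 0.0898).

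Dppa3, a maternal factor that protects against DNA methylation loss in the early embryo, stood at 12.8 and 11.5 FPKM with siRpl14+siRpl11, 13.2 and 13.2 FPKM with siRpl14 and 20.8 and 20.9 FPKM with siRpl11, against 9.54 and 6.46 FPKM with siNT. All 6 knockdown libraries of Dppa3 were above both siNT libraries. Its log2 fold changes were 0.57 ± 0.16, 0.68 ± 0.16 and 1.30 ± 0.16 (limma, adjusted p = 0.0257, 0.0189 and 0.00249). Without siNT replicate 2 the calls with both siRNAs and with siRpl14 were lost (limma, adjusted p of 0.108 and 0.0718), as they were without siRpl14+siRpl11 replicate 1 (0.138) and siRpl14 replicate 2 (0.0918). Leaving out any 1 siNT library, or replicate 2 of the knockdown, ended the calls of Tfap2c with siRpl14 and of Dnd1 with siRpl11, and Dnd1 also lost its call with no filter and with quantile or median-ratio scaling.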
